A study of Mus musculus with 4 samples.

Results

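Olfactory receptor genes, whose mouse symbols start with Olfr, were examined for accessible chromatin in sorted mouse brain parenchymal macrophages. A protein-coding Olfr gene was a member if at least 1 merged ATAC-seq peak was assigned to it. That meant a peak centre inside the gene, or the gene being the nearest protein-coding gene within 100000 bp. Of 1110 protein-coding Olfr genes, 68 were members (6.13%, 95% exact Clopper-Pearson interval 4.79 to 7.7), with 105 of the 74695 merged peaks. Of all 21887 protein-coding genes, 69.8% had a merged peak. The members were thus chosen by the peak calls themselves, so their peak numbers, positions and list membership are given as a description, with no test.

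Olfactory receptors are G-protein-coupled receptors, most of them known for detecting odorants in the nose. Each olfactory sensory neuron transcribes a single receptor gene from a single allele, and the others are kept in compact heterochromatin. The genes lie in tandem clusters on most chromosomes. Class I receptors form a single mouse cluster on chromosome 7, and class II receptors make up the remaining clusters. Expression was not measured in these data, so whether a member was silent was not tested.

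The 4 libraries carried the titles MDM1, MDM2, YSM1 and YSM2, with 2 libraries per group. MDM was taken to stand for the monocyte-derived macrophages in the study's title, and YSM is an abbreviation left unexplained by the labels. The cells were FACS-sorted and processed by the Omni-ATAC protocol. Every library of both groups had the genotype Ms4a3-Ai9, which joins the name of a gene of granulocyte and monocyte progenitors to that of a Cre-dependent red fluorescent reporter, and the treatment DR-3x, which is likewise unexplained. Animal numbers and ages were not stated, and libraries of 1 group may or may not stem from different mice.

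In ATAC-seq the Tn5 transposase cuts open chromatin, so that a peak marks an accessible site. The deposited peaks carried no value per library, so no spread between replicates could be given, and sequencing depth was not analysed here. The name of each merged peak ends in its number of subpeaks, which are the peaks of single libraries that were joined into it. A merged peak of 3 or fewer subpeaks therefore lacked a call in 1 or more of the 4 libraries. The authors' differential peaks came as an MDM list and a YSM list, and each list was read as holding the peaks with more signal in the group it is named after. All 12 brain macrophage markers, such as Csf1r and Cx3cr1, had a merged peak, 10 of them within 1000 bp of a gene end. All 12 olfactory sensory neuron markers also had a merged peak, 3 of them within 1000 bp of a gene end. Of 6 general neuron markers, 5 had a merged peak, 2 of them within 1000 bp of a gene end. Of all protein-coding genes, 69.8% had a merged peak. A merged peak was therefore no marker of cell type. Of the olfactory neuron genes, Omp, Stoml3, Gfy, Ano2 and Rtp1 had 1 merged peak each, of a single subpeak. Adcy3, Cnga2, Cnga4, Cngb1, Gng13 and Rtp2 had a peak of 4 subpeaks, and the peaks of Gnal reached 3.

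Peaks were sparse around Olfr genes, and most of their centres lay outside these mostly short genes. Of the bases within 100000 bp of a protein-coding gene, those nearest to an Olfr gene covered 29.5 Mb. They held 3.56 peaks per Mb (95% Poisson interval 2.91 to 4.31). Those nearest to another protein-coding gene covered 1880 Mb and held 37.8 peaks per Mb. Bases farther than the limit from any protein-coding gene were left out of both. Of the 105 peaks, 90 (85.7%) lay outside protein-coding genes and over 1000 bp from their ends. This held for 32.7% of all merged peaks on assembled chromosomes. Some of the 90 lay inside long noncoding RNA genes, as given below. Another 13 (12.4%) lay within 1000 bp of an end of a protein-coding gene, against 21.5% of all. Of the 105, 5 had their centre inside the Olfr gene itself. Many member genes have short intervals, such as 939 bp for Olfr432 and 951 bp for Olfr545, though Olfr1393 spans 28487 bp. A peak centre thus has little room to fall inside most of them. The shares inside and outside genes were not adjusted for gene length. The median distance to the assigned gene was 6063 bp. Intervals here and below cover counting error alone, and neighbouring peaks are not independent.

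Most members had a single peak. There were 40 members with 1 peak, 21 with 2, 5 with 3 and 2 with 4. The median was 1 peak per member, and 3 per gene over all genes with a peak. The members with 4 were Olfr111 on chromosome 17 and Olfr432 on chromosome 1. The distance limit mattered little. The farthest member peak lay 74024 bp from Olfr291, and the nearest peak beyond the limit lay 110940 bp from Olfr1324, which was not a member. Of the 1042 Olfr genes without a peak, Olfr2 and Olfr78 are named after their values were seen. Olfr2 is known from vascular macrophages and Olfr78 from the carotid body, and both had 0 merged peaks.

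The clusters were unequal. A cluster was taken as a run of at least 3 protein-coding Olfr genes whose neighbours lay at most 500000 bp apart, whatever genes lay between them. This gave 38 clusters on 16 chromosomes, with 3 to 222 genes and a length of 0.026 to 5.07 Mb. They held 1087 Olfr genes, of which 60 were members. The other 23 Olfr genes lay in 17 loci of 1 or 2 genes, and 8 of them were members. Members lay in 20 clusters, and 18 clusters with 293 Olfr genes had none. The share of members was 16.8% (16 of 95 genes) in the 16 clusters of at most 10 genes and 6.54% (28 of 428) in the 17 clusters of 11 to 49. It was 2.84% (16 of 564) in the 5 clusters of at least 50 genes.

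**Figure D1:**
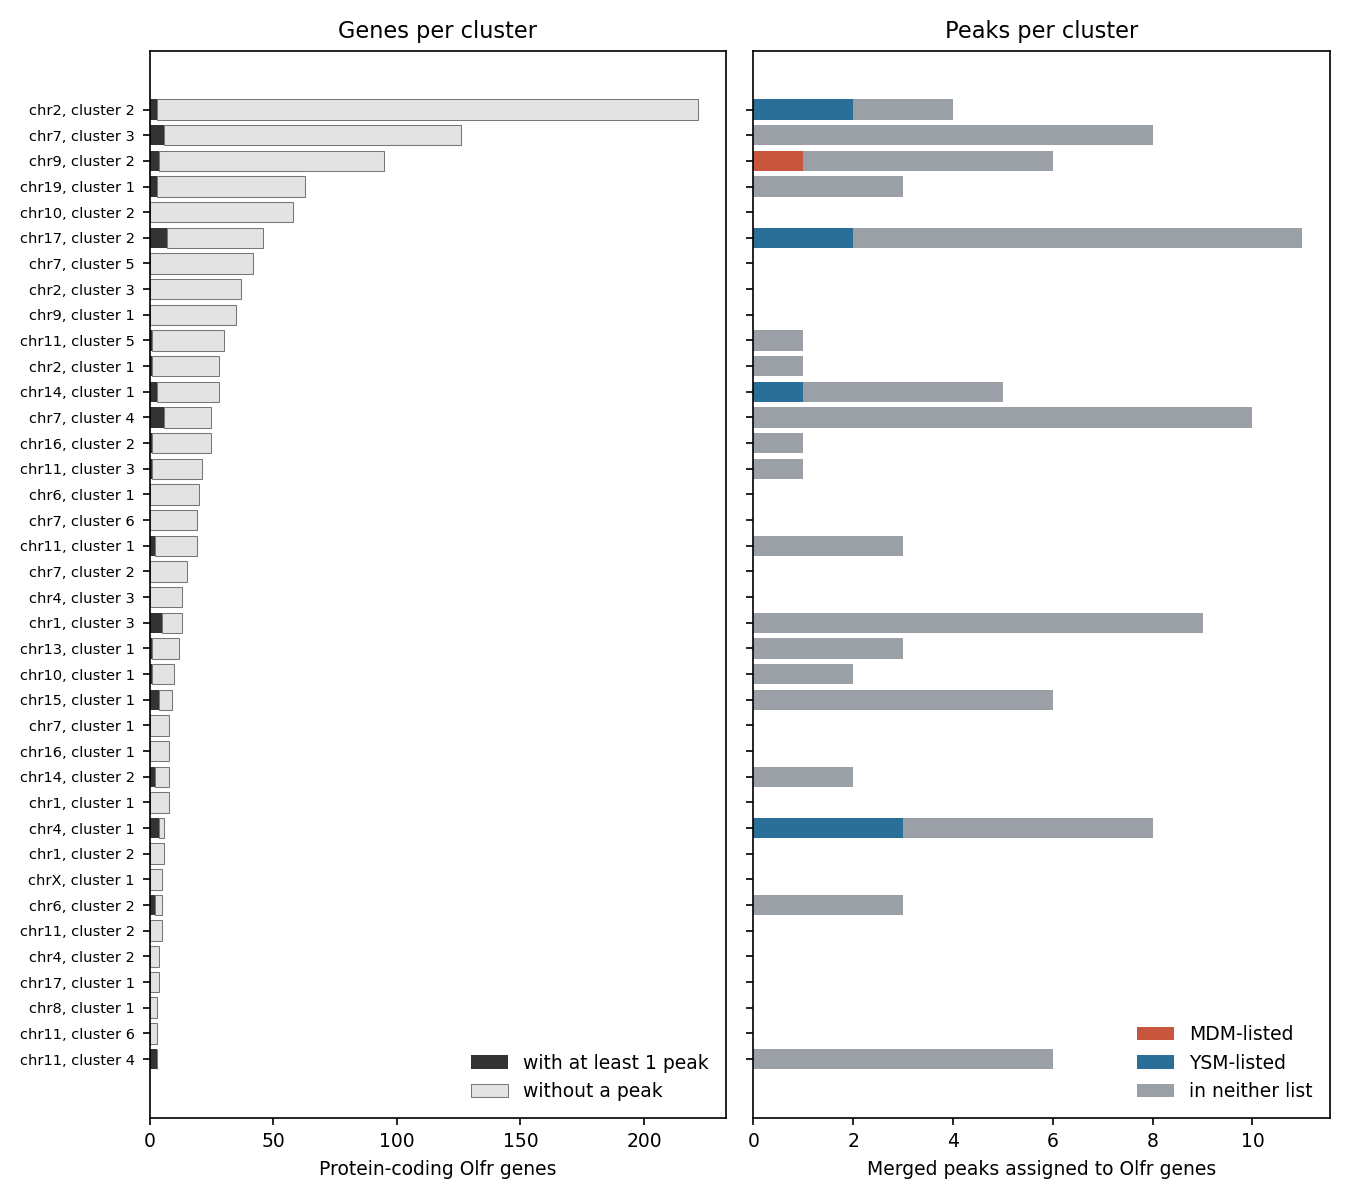
Each row is 1 of the 38 Olfr gene clusters, named by chromosome and order along it. Bars on the left count protein-coding Olfr genes with and without a merged peak, and bars on the right count the merged peaks assigned to them, by list. The longest gene bars carry few members, and 18 rows have no peak.

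The largest cluster was nearly free of peaks. On chromosome 2, from 85330967 to 90401674, 222 Olfr genes shared 4 merged peaks, or 0.789 per Mb. A stretch of 3100 kb with 142 of these genes held none. The chromosome 10 cluster from 128989914 to 130211128 had 58 Olfr genes and 0 merged peaks of any gene. The same was true of the 42 genes from 107814586 to 108894405 on chromosome 7 and the 37 genes from 111230853 to 112157007 on chromosome 2. In all, 19 clusters had no merged peak between their ends. At the other extreme, all 3 Olfr genes of a cluster on chromosome 11 and 4 of 6 genes of a cluster on chromosome 4 were members.

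Pooled over all clusters, peak density changed at the cluster ends. Counting every merged peak, whatever its gene, the 30.4 Mb inside clusters held 299 peaks, or 9.84 per Mb (95% Poisson interval 8.76 to 11). This value depended on the settings. It was 5.33 with a largest gap of 200000 bp between cluster genes, 14.6 with one of 1000000 bp, and 5.96 over peaks of at least 4 subpeaks. Of the 299 peaks, 75 belonged to Olfr genes and 224 to genes of other families that lie between them. The highest counts, 63, 50 and 31, fell in 1 cluster each on chromosomes 19, 14 and 13. These held 12, 15 and 10 genes of other families, while 19 clusters had no peak between their ends. The pooled density thus leans on a few clusters, and its interval does not cover the spread between clusters. Inside, density was 14.6 per Mb in the outer 20000 bp, 8.18 at 20000 to 50000 bp, 15.1 at 50000 to 100000 bp and 9.03 deeper than that, with no steady order. Outside, it was 37.5 per Mb in the first 20000 bp and between 47.4 and 57.5 in the bins out to 500000 bp. All assembled chromosomes together had 27.6 per Mb.

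**Figure D2:**
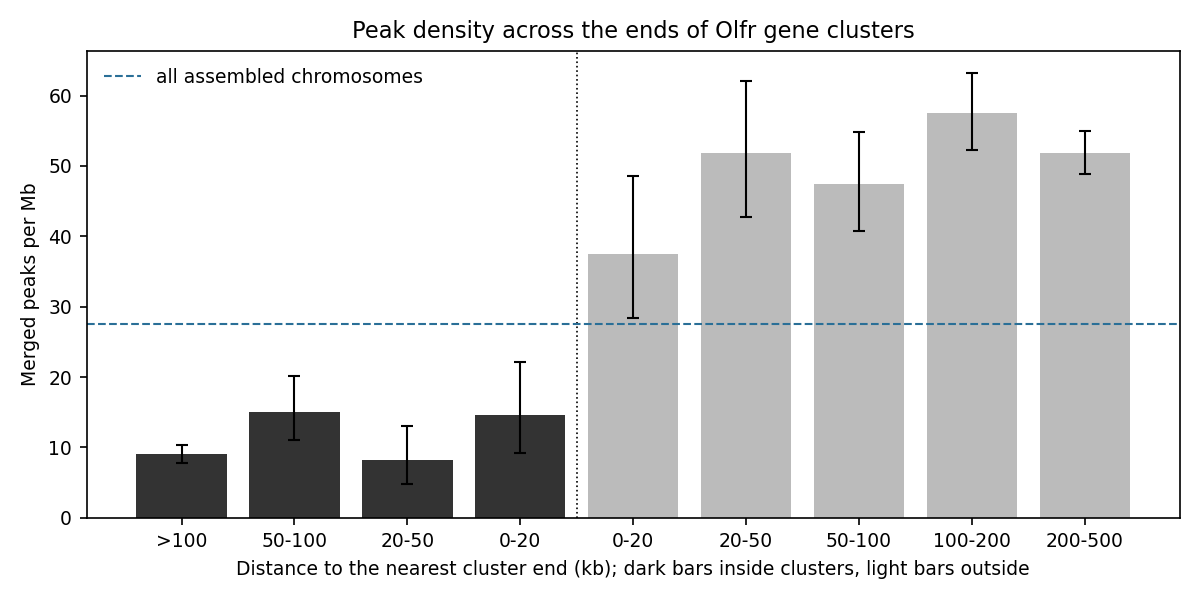
Merged peaks per Mb, pooled over all clusters, by distance to the nearest cluster end in kb, with dark bars inside clusters and light bars outside. Error bars are 95% Poisson intervals and the dashed line is the density of all assembled chromosomes, 27.6 per Mb. Every bar inside lies under that line and every bar outside lies above it.

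Of the 93 peaks at clustered Olfr genes, 75 (80.6%) lay between the cluster ends and 18 lay beyond them. The peaks inside had a median distance of 88292 bp to the nearer end, from 425 to 1285537 bp. Of these, 17 were within 20000 bp of an end, 34 were deeper than 100000 bp and 13 deeper than 500000 bp. The 18 peaks outside lay 1052 to 22957 bp from the end. Outermost genes were members more often. Of 76 outermost genes, 16 were members (21.1%), against 44 of 1011 genes further in (4.35%). An outermost gene also takes the peaks beyond its cluster.

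Members lay close to genes of other families. The median distance from an Olfr gene to the nearest protein-coding gene of another family was 32363 bp for members and 153435.5 bp for Olfr genes without a peak. Genes of another family are protein-coding genes here and below. Among Olfr genes at most 10000 bp from such a gene, 6 of 42 were members (14.3%), and at 10000 to 50000 bp 40 of 216 were (18.5%). At 50000 to 100000 bp 11 of 191 were (5.76%), and farther away 11 of 661 (1.66%). Of the 105 peaks, 37 (35.2%) lay within 20000 bp of a gene of another family and 92 (87.6%) within 100000 bp. Whether these sites belong to the neighbouring genes was not tested.

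**Figure D3:**
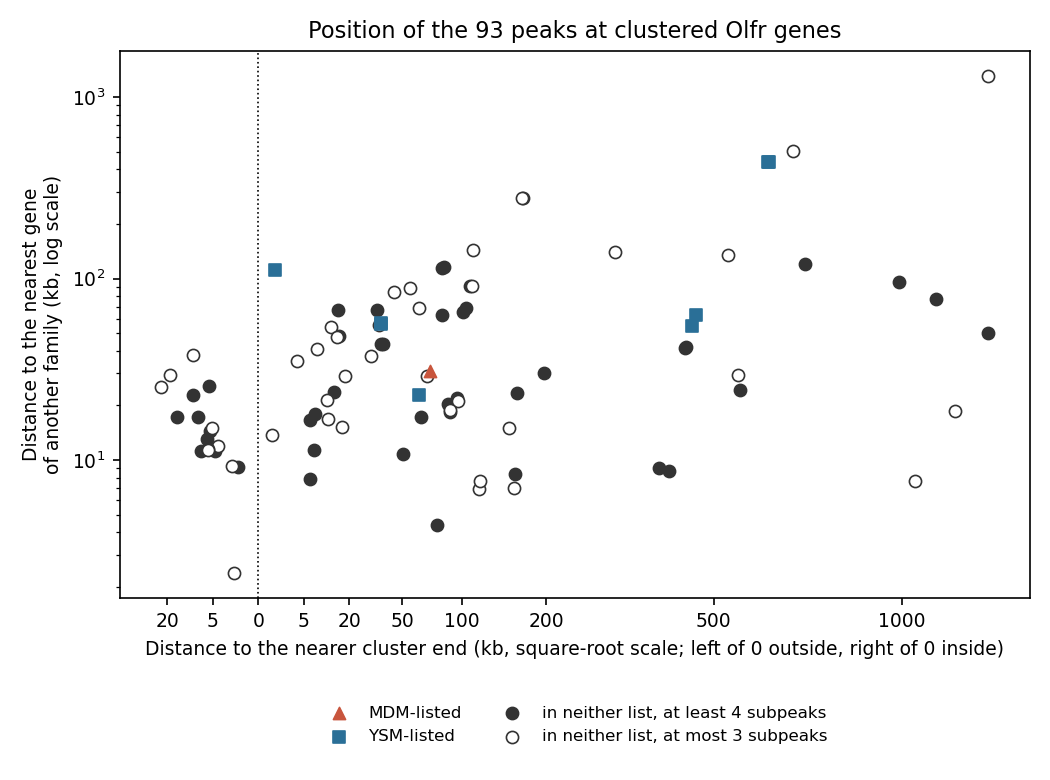
The 93 peaks at clustered Olfr genes, by distance to the nearer cluster end (square-root scale, outside to the left of 0) and by distance to the nearest protein-coding gene of another family (log scale). Triangles are MDM-listed, squares YSM-listed, and circles in neither list, filled with at least 4 subpeaks. The 9 listed peaks all lie inside clusters, and nearby peaks overlap in the plot.

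The cluster beside the major histocompatibility complex on chromosome 17 had the most Olfr peaks. Between 37085191 and 38336097 it held 46 Olfr genes, of which 7 were members with 11 peaks. Olfr111 (NCBI gene 545205, 37525753 to 37537652) had 4 of them. The peak from 37525600 to 37525838, with 4 subpeaks, covered the gene's lower coordinate. A second, from 37524591 to 37524939, also with 4 subpeaks, lay 988 bp from the gene. The remaining peaks of Olfr111, from 37538457 to 37538730 (4 subpeaks, 941 bp away) and from 37546402 to 37546603 (2 subpeaks, 8850 bp away), were both in the YSM list. The plus strand carries the gene in the RefSeq promoter table, so the first pair lay at its 5′ side and the listed pair at its 3′ side.

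Olfr110 (NCBI gene 258325, 37492468 to 37499674) is the next Olfr gene to Olfr111. It is named because, of the 61 members with a RefSeq promoter, it was the only 1 whose promoter overlapped a peak. These promoters are placed at the starts that RefSeq gives. For Olfr432, with an interval of 939 bp, that start is the end of the gene interval. Whether transcription of the members begins at these starts was not tested. Olfr110 and Olfr111 have both been described in mouse microglia. The Olfr110 peak ran from 37492144 to 37492355, with 4 subpeaks, and was in neither list. It covered 138 of the 300 bases of the promoter window, which runs from 250 bases before to 50 after the gene's start. Both promoters are on the plus strand of GRCm38.p6, from RefSeq, at chr17:37492218-37492517 for Olfr110 and chr17:37529707-37530006 for Olfr111. They are shown to set the covered promoter beside that of its neighbour. Capitals mark bases inside a merged peak, and the Olfr111 window had 0 such bases. The start that RefSeq gives for Olfr111 in this table lies inside the gene interval, so the 0 bases apply to this window only. The gene's lower coordinate, at its 5′ side, was covered by a peak of 4 subpeaks, as given above.
Olfr110: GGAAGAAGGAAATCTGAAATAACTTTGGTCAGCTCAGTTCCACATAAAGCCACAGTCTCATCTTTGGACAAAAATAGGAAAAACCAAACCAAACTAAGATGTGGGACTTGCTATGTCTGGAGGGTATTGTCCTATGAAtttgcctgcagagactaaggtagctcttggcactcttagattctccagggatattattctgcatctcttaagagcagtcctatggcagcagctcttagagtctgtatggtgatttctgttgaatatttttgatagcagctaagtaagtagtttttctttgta
Olfr111: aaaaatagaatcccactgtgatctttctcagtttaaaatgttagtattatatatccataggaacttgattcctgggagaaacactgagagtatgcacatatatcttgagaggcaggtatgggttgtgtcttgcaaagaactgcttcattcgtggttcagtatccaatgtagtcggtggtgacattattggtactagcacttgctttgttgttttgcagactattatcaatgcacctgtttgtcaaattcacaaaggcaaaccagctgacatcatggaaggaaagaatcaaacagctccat

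**Figure D4:**
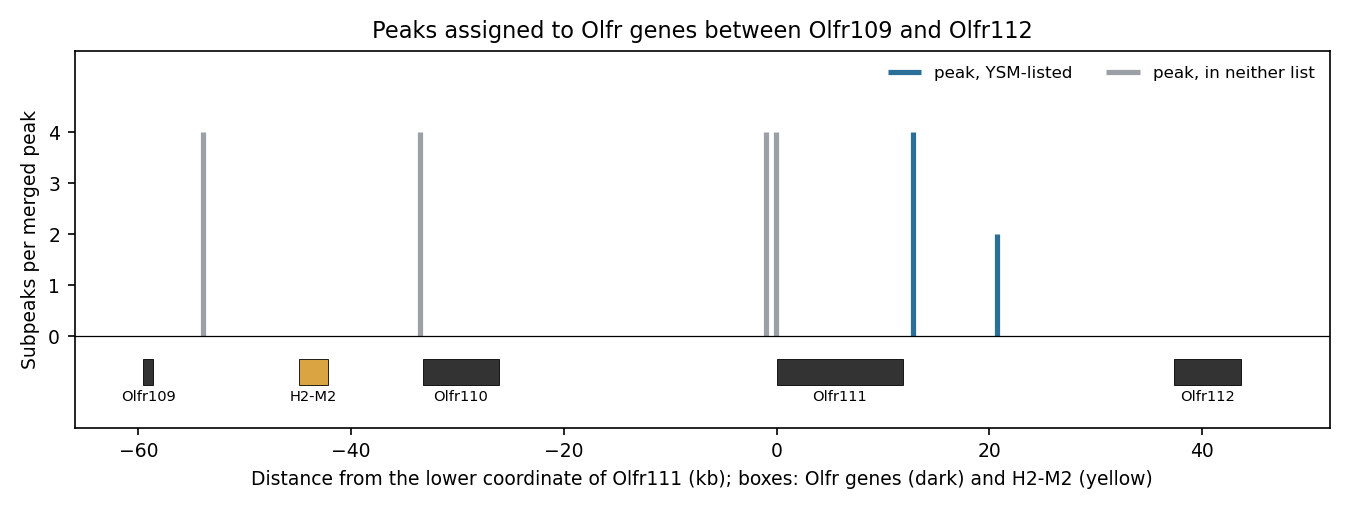
Genes (boxes) and merged peaks assigned to Olfr genes (vertical lines, height in subpeaks) between Olfr109 and Olfr112, by distance in kb from the lower coordinate of Olfr111. The YSM-listed peaks of Olfr111 stand to the right of the gene with 4 and 2 subpeaks, and the peaks in neither list stand at its lower coordinate, at Olfr110 and near H2-M2.

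Neither promoter window held any of the letter patterns searched on both strands. These were GAGGAAGT, the core bound by the macrophage factor PU.1, TGANTCA for AP-1, a palindrome of the EBF factors of olfactory neurons and TAATTA for homeodomain factors. Promoters were matched for 61 of the 68 members. The shares describe windows at the RefSeq starts, which may not be where transcription begins. GAGGAAGT was in 0 of these 61, against 0.789% of the promoters of Olfr genes without a peak and 3.2% of all promoters in the table. TGANTCA was in 7 (11.5%), against 13.6% for Olfr genes without a peak and 7.81% of all promoters. TAATTA was in 10 (16.4%), against 18.7% for Olfr genes without a peak and 5.29% of all promoters. The EBF palindrome was in 1 (1.64%), that of Olfr698, against 0.451% for Olfr genes without a peak and 0.904% of all promoters. Matches of different patterns were counted separately even where they overlapped, and a match is not a binding site.

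The chromosome 17 cluster also held immune genes. The peak from 37471667 to 37472009 near Olfr109 and that of Olfr110 lay 9013 and 8695 bp from H2-M2, a nonclassical class I histocompatibility gene. A pair of Olfr94 peaks, with 2 and 3 subpeaks, lay 6947 and 7691 bp from Ubd, a ubiquitin-like modifier gene of immune cells. The YSM-listed peaks of Olfr111 lay 55039 and 62948 bp from H2-M2.

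The class I cluster on chromosome 7, from 102476773 to 105369317, held 126 Olfr genes with 27 genes of other families among them. It had 30 merged peaks, of which 8 belonged to 6 Olfr genes and 0 were in either list. Of all merged peaks, 1.48% were YSM-listed and 0.145% MDM-listed, so 0 among so few peaks sets no cluster apart. Olfr545 had 3 peaks, with 1, 7 and 7 subpeaks, at 12323, 18466 and 19579 bp from the gene. The peak of Olfr549 (102553320 to 102553734, 5 subpeaks) lay 759 bp from it and 4393 bp from Trim21, a cytosolic antibody receptor gene. Another peak of 5 subpeaks lay 5058 bp from Olfr547, and 17174 bp from Trim21. The peak of Olfr658 (104647123 to 104647527, 5 subpeaks) lay 20 bp from the gene and 120636 bp from the nearest gene of another family, and 721992 bp inside the cluster.

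A further chromosome 7 cluster, from 106677534 to 107148329, had 10 peaks at 6 of its 25 Olfr genes, all between its ends. Olfr694 had 3, with 3, 1 and 4 subpeaks, at 2752 to 3356 bp. Olfr698 had 2, of 6 and 4 subpeaks, 5611 and 6780 bp away, and these lay 114351 and 115520 bp from the nearest gene of another family. None of the 10 was listed, against 1.48% of all merged peaks in the YSM list and 0.145% in the MDM list.

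On chromosome 1, the cluster from 174041933 to 174449602 had 9 peaks at 5 of its 13 Olfr genes. None of the 9 was listed, against 1.48% of all merged peaks in the YSM list and 0.145% in the MDM list. Beyond its lower end lies Ifi205, an interferon-inducible gene, which was 16675 to 23838 bp from the 4 peaks of Olfr432. Those peaks had 4, 4, 1 and 4 subpeaks and lay 1945, 766, 1930 and 4280 bp from Olfr432. Olfr417 had peaks with 3 and 6 subpeaks, 15000 and 14005 bp away.

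The chromosome 4 cluster from 43695000 to 43855463 was small and dense in peaks. Its 6 Olfr genes had 8 peaks, of which 3 were YSM-listed, against 1.48% of all merged peaks. These listed peaks were among the reasons for naming its genes, so the count is a description only. Those of Olfr156 (NCBI gene 29846, 43820335 to 43821433), from 43818879 to 43819081 and from 43819115 to 43819362, had 2 subpeaks each and were 33 bp apart. Another Olfr156 peak, with 1 subpeak, lay 24 bp from the gene and was in neither list. The YSM-listed peak at Olfr159, from 43757155 to 43757560, had 5 subpeaks and lay 12693 bp from the gene, inside the long noncoding RNA gene A630077J23Rik. The nearest protein-coding gene of another family was Reck, an inhibitor of matrix metalloproteases, for the listed peaks of Olfr156 (56541 and 56283 bp). It was Spaar for the listed peak of Olfr159 (22823 bp).

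On chromosome 11, the cluster of 3 genes from 59570782 to 59614225 lies beside Nlrp3, the inflammasome sensor gene. Its 6 peaks had 2 to 4 subpeaks, and 4 of them lay beyond the cluster ends. The 2 peaks of Olfr222 lay 1437 and 6577 bp from it and 2390 and 11360 bp from Nlrp3. The 3 peaks of Olfr225 lay 10207 to 22957 bp away. Elsewhere on the chromosome, both peaks of Olfr1393, with 1 and 4 subpeaks, lay inside the gene interval (49263873 to 49292359). They were 6996 and 8378 bp from Mgat1, a gene of N-glycan synthesis. On chromosome 13, Olfr1368 had 3 peaks, with 4, 3 and 5 subpeaks, 16034 to 17904 bp away and 18491 to 20361 bp from Trim27.

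On chromosome 14 lay the peaks with the most subpeaks, 8 each. They belonged to Olfr726 (50062398 to 50062903, 21064 bp away) and Olfr750 (51064750 to 51065452, 5210 bp away). The widest merged peak of any Olfr gene was that of Olfr750, at 703 bp. The Olfr726 peak lay 279170 bp from any protein-coding gene of another family. Olfr750 also had a peak of 1 subpeak inside the gene. Olfr722 (49894258 to 49901941) and Olfr750 are the outermost genes of this cluster, at its lower and upper end. The Olfr722 peak, from 49894650 to 49895125, had 3 subpeaks, lay inside the gene and was YSM-listed. In the next cluster, Olfr1509, also called Mor83, had a peak of 2 subpeaks inside the gene (52451145 to 52451384), and Olfr1507 had 0 peaks.

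The single MDM-listed peak at an Olfr gene was on chromosome 9, from 40116844 to 40117211. It had 5 subpeaks, lay 9897 bp from Olfr985 and was 71067 bp inside a cluster of 95 Olfr genes. The next MDM-listed peak lay 17201884 bp away. Olfr985 had a second peak, also of 5 subpeaks and in neither list, 9292 bp away. On chromosome 19, the 5-subpeak peak of Olfr1449 lay 4854 bp from the gene, 990086 bp inside a cluster of 63 Olfr genes.

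Members outside clusters also had neighbours of other families. Their 12 peaks belonged to 8 genes in 6 loci. None of the 12 was listed, against 1.48% of all merged peaks in the YSM list and 0.145% in the MDM list. Olfr266 had peaks 19308 and 82893 bp from Cd53, a leukocyte tetraspanin gene. Olfr520 and Olfr521 had 4 peaks, 14117 to 30950 bp from Slco2b1 or Neu3. Olfr266, Olfr520 and Olfr521, like the members near Ubd and H2-M2 above, were picked for their neighbours with the values in view.

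Listed peaks at Olfr genes were few. In the MDM list, 1 of the 105 peaks was found (0.952%, 95% exact interval 0.0241 to 5.19), against 0.145% of all merged peaks. In the YSM list, 8 were found (7.62%, 3.35 to 14.5), against 1.48% of all merged peaks. The 8 lay at 5 members in 4 clusters, all between cluster ends. By gene, 1 of 68 members had an MDM-listed peak (1.47%), against 0.537% of all genes with a merged peak. A YSM-listed peak was found at 5 members (7.35%), against 4.28% of all genes with a merged peak. Set tests were not made, and the lists give no value per library.

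The YSM-listed peaks were also counted by subpeak number. Of the 8 YSM-listed peaks, 6 had 3 or fewer subpeaks. Among Olfr peaks with at most 3 subpeaks, 6 of 53 were YSM-listed (11.3%, 4.27 to 23), against 2.5% of all such merged peaks. Among those with at least 4 subpeaks, 2 of 52 were (3.85%, 0.469 to 13.2), against 0.726% of all such peaks. The 2 intervals overlap. Outside protein-coding genes and over 1000 bp from their ends, 6 of 90 were (6.67%), against 1.53% of all such peaks. Among Olfr peaks of exactly 2 subpeaks, 3 of 16 were YSM-listed (18.8%), against 5.94% of all such peaks. With peaks within 1000 bp of each other joined, 6 of 90 sites were YSM-listed (6.67%), against 1.68% of all sites. The part of subpeak number in the list was not tested.

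The MDM-listed peak of Olfr985 was among the peaks with at least 4 subpeaks, 1 of 52 (1.92%), against 0.22% of all such peaks. It was also 1 of the 90 outside protein-coding genes and over 1000 bp from their ends (1.11%), against 0.237% of all such peaks. Among Olfr peaks with at most 3 subpeaks, 0 of 53 were MDM-listed (95% exact interval up to 6.72%), against 0.0412% of all such peaks. Among those with exactly 2 subpeaks, 0 of 16 were (up to 20.6%), against 0.069% of all such peaks. A single listed peak gives no pattern across subpeak numbers.

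The YSM-listed peaks at Olfr1028, deep in the chromosome 2 cluster, form such a joined site. They ran from 85958282 to 85958482 (1 subpeak) and from 85958640 to 85958896 (3 subpeaks), 157 bp apart. They lay 627415 and 627801 bp inside the cluster and 439447 and 439833 bp from Fads2b, the nearest protein-coding gene of another family. Both lay inside the long noncoding RNA gene Gm52520, whose RefSeq promoter overlapped the first.

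Peaks at Olfr genes had 1 to 8 subpeaks, and the highest number of any merged peak was 12. Of the 105, 53 (50.5%, 40.5 to 60.4) had at most 3 subpeaks, against 42.3% of all merged peaks. Outside protein-coding genes and over 1000 bp from their ends, the shares were 51.1% for Olfr peaks and 45.8% for all merged peaks. A single subpeak was found in 24 Olfr peaks (22.9%, against 20.3% of all merged peaks). There were 2 subpeaks in 16 (15.2%, against 11.6%), 3 in 13 (12.4%, against 10.4%) and 4 in 37 (35.2%, against 46.4%). The other 15 had 5 or more (14.3%, against 11.3%). The share with at most 3 subpeaks was 49.3% inside clusters and 50% outside them. It was 9 of 13 for peaks more than 100000 bp from a gene of another family. The median width was 240 bp for Olfr peaks and 236 bp for all merged peaks.

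**Figure D5:**
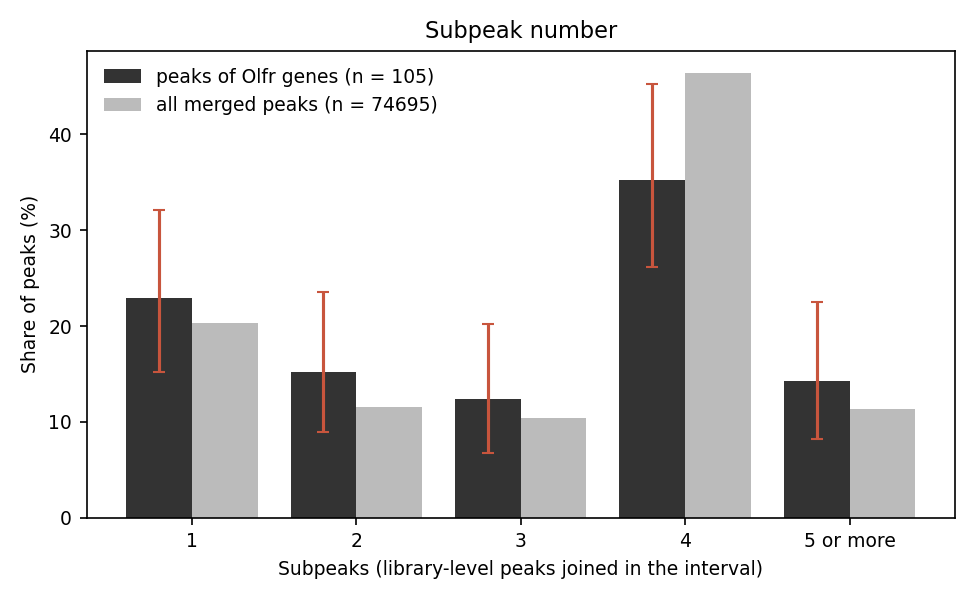
Share of peaks in percent by number of subpeaks, for the 105 peaks of Olfr genes (dark, with 95% exact binomial intervals) and all 74695 merged peaks (light). The light bar lies within the dark bar's interval at 1, 2, 3 and 5 or more subpeaks, and lies above it at 4.

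Genes that serve olfactory receptors elsewhere in the cell were described beside the members. The list held 14 signalling genes, 4 receptor transport genes and 14 genes of receptor choice and neuron identity. A merged peak was found at 13, 4 and 13 of them, or 30 of 32 genes, against 69.8% of all protein-coding genes. Of the 30 genes with a merged peak, 2 had YSM-listed peaks, against 4.28% of all genes with a merged peak. An MDM-listed peak was found at 0 of the 30, against 0.537%. Gene counts this small set the list apart from neither share. By peak, 7 of the 129 merged peaks of these genes were YSM-listed, against 1.48% of all merged peaks. Of the 129, 0 were MDM-listed, against 0.145%. The 7 lay at Cnga2 and Ebf3 alone, and neighbouring peaks are not independent. Cnga2, a subunit of the olfactory cyclic nucleotide-gated channel, had 4 YSM-listed peaks among 7, all outside the gene on chromosome X. Of these, 3 lay between 72012182 and 72012999, 2072 to 2681 bp from the gene, and the fourth lay 13520 bp away. Ebf3, a transcription factor gene of olfactory neurons, had 3 YSM-listed peaks among 12, all inside the gene. Lhx2, a homeodomain factor needed for receptor expression, had 12 merged peaks, and Adcy3, the olfactory adenylyl cyclase, had 5, with 0 listed at either gene.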

How the data were processed

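Reads of the 4 libraries went through Trimmomatic 0.39, Bowtie2 2.2.5, Picard tools and HOMER, on mm10, per the submitters' processing notes. Peaks of the 4 libraries were joined with HOMER mergePeaks, per the file headers. Peak caller settings, any Tn5 shift, the thresholds behind the differential lists and the treatment of reads that match several gene copies are not stated in the labels or file headers. The score column of the deposited lists was not used.

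Coordinates were written 1-based. Genes came from RefSeq for GRCm38.p6, the assembly of mm10. A centre equally near to several genes went to an Olfr gene, then to the shorter gene, and 0 Olfr peaks were tied. A peak was listed if its coordinates matched a listed peak exactly. Scripts ran in Python 3.11.15 with pandas 2.3.3 and scipy 1.17.1, and assignment and clustering were tested on simulated data. No group test was run, since the lists hold no value per library. The members and gene lists were chosen with earlier results of these data known. Genes were named for listed peaks, peaks inside the gene, most peaks, most subpeaks and closeness to the distance limit, which gave 24 names. Other names were added with the values in view. Alternatives were tried for the distance limit, the competing genes, the subpeak minimum, the overlap and the cluster gap.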

Additional observations from a re-analysis of the deposited data

How the results depend on the processing

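Of 34 values under an alternative, over 9 results, 22 stayed close to the first value and 12 moved. A count was close if within 1.5 times the first value, and a share, median or density if within its 95% interval. Close by that measure were still 49 members with genes of every annotated kind, 57 members and 81 peaks with at least 2 subpeaks, and 6 YSM-listed sites with neighbours joined. With the peak centre required inside the gene, 4 members and 5 peaks were left. With at least 4 subpeaks, 40 members, 52 peaks and 2 YSM-listed peaks were left, and cluster density was 5.96 peaks per Mb. When genes of every annotated kind competed for a peak, 67 of the 105 peaks stayed with members and 5 YSM-listed peaks did. The rest went to noncoding genes and pseudogenes, 12 of them to Olfr pseudogenes. Among peaks more than 100000 bp from a gene of another family, 69.2% had at most 3 subpeaks. A largest gap of 200000 bp in a cluster gave a density of 5.33 peaks per Mb, and one of 1000000 bp gave 14.6 and a median depth of 118601 bp. The cause was not tested. The subpeak minimum for listed peaks and the joining of neighbours were chosen after seeing the data. No paired analysis was possible because the lists hold no value per library, and no library could be left out for the same reason.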

Other observations

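In other clustered chemosensory receptor families, the share of genes with a merged peak was also under the 69.8% of all protein-coding genes. The smallest families had the highest shares, over few genes. Among vomeronasal receptors, 5 of 230 Vmn1r genes (2.17%) and 11 of 123 Vmn2r genes (8.94%) had a merged peak. Vmn1r4 had 3 peaks inside the gene. The peak at Vmn1r90 on chromosome 7, from 14533687 to 14533982 with 5 subpeaks, was MDM-listed and lay 27408 bp from the gene. Of the trace amine receptors, 6 of 15 Taar genes (40%) had a peak, with 7 peaks in all, and 0 of them lay inside a gene. Formyl peptide receptors guide phagocytes, and 3 of 7 Fpr genes had 12 peaks, of which 5 at Fpr1 and 6 at Fpr2. Of the 7 Vmn1r, 12 Vmn2r, 7 Taar and 12 Fpr peaks, 0 were YSM-listed, against 1.48% of all merged peaks, and so few peaks show no difference from the Olfr peaks.

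Between the ends of the Olfr clusters, 224 merged peaks belonged to genes of other families. Of these, 2 were YSM-listed, against 1.48% of all merged peaks, so few that they set this group apart from no other. Both lay inside Tcaf1 on chromosome 6, a gene of a TRP channel-associated factor, from 42692043 to 42692571 and from 42692656 to 42693069, with 4 subpeaks each. The 20 Olfr genes of that cluster had 0 peaks.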
